A study of Homo sapiens with 6 samples.

Results

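Long non-coding RNAs with a LINC symbol were examined in H69 cells after treatment with trichostatin A (TSA). A gene of the deposited table of 31814 genes was included if its symbol was LINC followed by digits and its level was at least 1 TPM (transcript units scaled to the same total in each library) in at least 3 of the 6 libraries. LINC00261 was left out. Of the 289 other LINC-named genes 97 met the rule and are called LINC genes here, and 192 did not. The genes were thus selected on their TPM values in the same libraries that are compared below. The TSA group held 3 libraries of H69 cells given 1 µM TSA for 24 h, and the vehicle group held 3 libraries of H69 cells given the solvent DMSO for 24 h. Both groups grew in RPMI medium with 10% FBS, and poly-A RNA was sequenced with a stranded kit. One label of the treated samples has HSA where the design text and the protocol have TSA. The labels do not give a tissue for H69, a name used for more than one human cell line, and do not tell whether the 3 libraries per group are separate cultures. The p-values below therefore measure the spread between libraries, which may be technical.

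TSA blocks histone deacetylases, enzymes that take acetyl groups off histones and other proteins, and such inhibitors change the transcription of many coding and non-coding genes. Long intergenic non-coding RNAs are transcribed by RNA polymerase II from their own promoters, often spliced and polyadenylated, and many are made in few cell types. The LINC symbol is a placeholder given to such a gene before its function is known. Some entries have since been renamed as hosts of microRNAs or small nucleolar RNAs, as partners of a divergent coding gene, or as genes of short proteins. RefSeq gives 38 of the 97 another symbol, and a current annotation, GENCODE 29 or RefSeq, lists 13 as protein-coding. Some of the 13 are only RefSeq synonyms of coding genes that were measured separately. GENCODE 29 types 53 of the 97 as lincRNA and 13 as antisense, and the others have other types or no match.

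Reads recovered from the deposited values, which are lower bounds of the depth, numbered from 23009041 to 24803310 in the TSA libraries and from 22533307 to 26148651 in the vehicle libraries. Mitochondrial genes held 16.9%, 7.65% and 10.4% of all TPM in the TSA libraries and 12.3%, 4.97% and 10.1% in the vehicle libraries. Replicate 1 had the greatest value of its group in both groups for 33 LINC genes. The 5 neuroendocrine markers used here were all present, with a summed level of 640.2 to 758 TPM in TSA and 975.2 to 1171 TPM in vehicle. They did not all move one way, as INSM1 averaged 24.7 ± 4.93 TPM in TSA and 613.9 ± 77.4 TPM in vehicle (SD, n = 3 each), and CHGA, a protein of secretory granules, 239.2 ± 5.01 TPM in TSA and 138.0 ± 18.7 TPM in vehicle. The sum of 5 fibroblast markers ran from 5.15 to 7.05 TPM in TSA and from 0.211 to 0.906 TPM in vehicle. Most of that sum was COL1A1, and DCN and COL3A1 were at or near 0. That of 4 leukocyte markers ran from 4.00 to 4.96 TPM in TSA and from 4.08 to 4.92 TPM in vehicle, almost all of it CD14, with LYZ at or near 0. Endothelial markers summed to under 1 TPM in every library. Markers of bile duct cells summed to 265 to 383 TPM in TSA and 748 to 953 TPM in vehicle, most of it EPCAM, while SOX9 went the other way, at 22.97 ± 2.33 TPM in TSA and 15.9 ± 1.67 TPM in vehicle. KRT7, also on that list, was low, at 0.664 ± 0.272 TPM in TSA and 5.425 ± 1.535 TPM in vehicle. The part of these shifts in the results below was not tested. In bulk RNA, fewer cells of a type and less RNA per cell cannot be told apart.

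TSA-treated cells held more of 23 LINC genes and less of 39, and 35 did not pass the test. The greatest gain was that of LINC00624, and the greatest losses were those of LINC01014, LINC00403 and LINC00461. The test was limma on log2(TPM + 1), a scale that understates changes of low genes, with Benjamini-Hochberg adjustment over all 17596 genes that met the same level rule and a threshold of 0.05. All differences and standard errors below are on that scale, TSA minus vehicle. The 23 rises are 23.7% of the LINC genes, where 28% of all tested genes rose. The 39 falls are 40.2%, where 34.2% of all tested genes fell. The median difference was −0.31 over the LINC genes, with a range from −3.91 to 7.63, and −0.10 over all tested genes.

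A gene measured mainly in one group had to differ in order to be included, so these counts mix the rule with the response. Of the LINC genes, 12 were at 1 TPM or more in at least 2 TSA libraries and in fewer than 2 vehicle libraries, and 9 of them rose while none fell. The reverse held for 28 LINC genes, of which 20 fell and none rose. The remaining 57 were at 1 TPM or more in at least 2 libraries of each group. Among these 57, 14 rose (24.6%), 19 fell (33.3%) and 24 did not pass, with a median of 0.01. Of all 14841 tested genes at such a level in both groups, 25.4% rose and 34.2% fell, with a median of −0.11. The shares of the LINC genes lay near this background, so the counts alone are no result about the class. The TSA and vehicle values did not overlap for 65 LINC genes (67.0%), of which 26 were above and 39 below, where 67% of all tested genes did not overlap. Changes of at least 2-fold on the log2(TPM + 1) scale made up 13 of the rises and 25 of the falls. Over all 17596 tested genes they made up 2728 rises and 3472 falls. Both sets of counts include genes that met the rule mainly through 1 group.

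**Figure D1:**
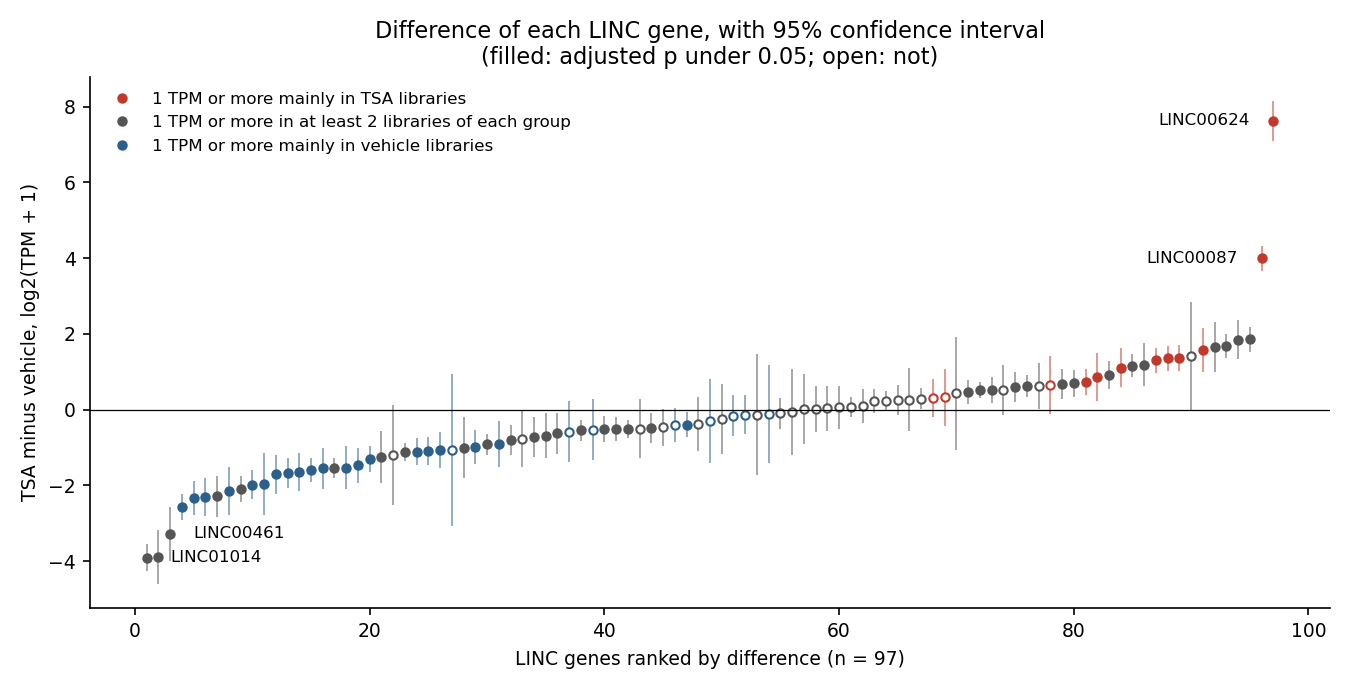
Difference TSA minus vehicle on the log2(TPM + 1) scale (y axis) of the 97 LINC genes ranked by it (x axis), with the 95% confidence interval of limma. Filled points passed the test, and colours mark whether the gene was at 1 TPM or more mainly in TSA, in both groups or mainly in vehicle. LINC00624 and LINC00087 stand above 3.9, and LINC01014 and LINC00461 are among the 3 lowest.

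The current loci of 7 LINC genes span a microRNA gene, none of these hosts rose, and 4 fell, where 28% of all tested genes rose and 34.2% fell. With 7 genes, nothing is read from these counts. MicroRNAs are short RNAs cut from a longer host transcript, and the bases from position 2 to 8, the seed, pair with target messages. The mature microRNAs themselves were not measured by the poly-A libraries. Of the 7 hosts 4 form 2 pairs in which a seed is shared. LINC00461 (MIR9-2HG) holds the gene MIR9-2 and LINC00925 (MIR9-3HG) holds MIR9-3, which yield the same mature miR-9-5p, a microRNA of neural tissue. LINC00478 (MIR99AHG) holds MIR99A and MIRLET7C, and LINC00085 (SPACA6) holds MIR99B, MIRLET7E and MIR125A. The mature sequences are given below from RefSeq (GRCh38.p14), with the seed in capitals, to show which hosts share a seed.
hsa-miR-9-5p of LINC00461 at chr5:88666902-88666924, minus strand, and of LINC00925 at chr15:89368032-89368054, plus strand: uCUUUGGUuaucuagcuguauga
hsa-miR-99a-5p of LINC00478 at chr21:16539101-16539122, plus strand: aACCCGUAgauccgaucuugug
hsa-miR-99b-5p of LINC00085 at chr19:51692618-51692639, plus strand: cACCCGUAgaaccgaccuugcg
hsa-let-7c-5p of LINC00478 at chr21:16539838-16539859, plus strand: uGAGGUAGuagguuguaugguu
hsa-let-7e-5p of LINC00085 at chr19:51692793-51692814, plus strand: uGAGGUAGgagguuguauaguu

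The hosts of miR-9 differed in their values. LINC00461 was at 13.1, 6.80 and 8.81 TPM in TSA libraries 1, 2 and 3, against 137, 71.6 and 96.6 TPM in vehicle libraries 1, 2 and 3. Every TSA value lay below every vehicle value, and LINC00461 fell by 3.28 (SE 0.30, adjusted p = 0.000125, limma). LINC00925 was at 8.78, 2.08 and 3.83 TPM in TSA and 7.49, 2.92 and 3.86 TPM in vehicle. Here the groups overlapped, replicate 1 was the highest of both, and the difference was −0.05 (SE 0.47, adjusted p = 0.934, limma). The difference between the 2 hosts was not tested.

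The hosts of the miR-99 and let-7 pair were both lower in their means, and 1 of them passed the test. LINC00478 was at 0.350, 0.292 and 0.359 TPM in TSA and 3.02, 3.15 and 2.90 TPM in vehicle, and fell by 1.59 (SE 0.13, adjusted p = 8.88e-05, limma). It rested on 14, 12 and 14 recovered reads in TSA and 111, 109 and 113 in vehicle, and it met the inclusion rule through the vehicle libraries. LINC00085 was at 1.66, 0.809 and 1.74 TPM in TSA and 3.78, 1.66 and 4.22 TPM in vehicle. Its groups overlapped in vehicle replicate 2, and the difference of −0.78 (SE 0.31) did not pass (adjusted p = 0.0662, limma). It passed without vehicle replicate 2 (−1.08, adjusted p = 0.0113), with quantile scaling (adjusted p = 0.0327) and with the trend on length and GC content removed (adjusted p = 0.0326). It passed also with a replicate block, in which the replicate number was part of the model.

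Among the other hosts, LINC00669 (MIR924HG) was at 5.10, 5.93 and 7.06 TPM in TSA and 27.4, 28.0 and 31.4 TPM in vehicle, and fell by 2.10. LINC00338 (SNHG20), also a host of a small nucleolar RNA, was at 19.3, 7.19 and 9.30 TPM in TSA and 27.0, 20.3 and 21.8 TPM in vehicle. It fell by 1.00 (adjusted p = 0.0361, limma), which did not pass without TSA replicate 2, TSA replicate 3, or any 1 of the vehicle libraries, with adjusted p-values from 0.0602 to 0.109. LINC00969 (MIR570HG) averaged 11.3 ± 10.4 TPM in TSA and 6.86 ± 3.96 TPM in vehicle, with replicate 1 the highest of both groups, and did not pass.

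Of the 13 LINC entries that a current annotation lists as protein-coding, 5 rose, 3 fell and 5 did not pass, where 28% of all tested genes rose and 34.2% fell. Counted here are LINC00610, which rose, LINC00341, which fell, and LINC00594, which did not pass. Each is only a RefSeq synonym of a coding gene that was measured separately. The greatest gain among the 13 was shared by a small family of paralogues, SMIM10L2B and SMIM10L2A, deposited as LINC00087 and LINC00086. LINC00087 was at 15.5, 15.2 and 15.9 TPM in TSA and 0, 0.118 and 0 TPM in vehicle, which is 304, 306 and 303 recovered reads in TSA and 0, 2 and 0 in vehicle. LINC00086 was at 10.6, 10.1 and 10.7 TPM in TSA and 2.43, 2.10 and 2.0 TPM in vehicle. The TSA libraries of both lay within a narrow range well above the vehicle libraries. LINC00087 met the inclusion rule through the TSA libraries, so it had to differ. The differences were 3.99 (SE 0.14) for LINC00087 and 1.85 (SE 0.13) for LINC00086, with adjusted p-values of 6.12e-06 and 4.97e-05 from limma. SMIM10, a further gene of that family with no LINC symbol, averaged 9.47 ± 1.02 TPM in TSA and 1.92 ± 0.298 TPM in vehicle, and rose by 1.84 (adjusted p = 9.43e-05, limma). Of the 50-base words in GENCODE 29 transcripts of LINC00087, 8.6% also occur in SMIM10L2A, so part of the reads could belong to either gene.

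Other entries for short proteins were LINC00493, LINC00116, LINC00998 and LINC00634. LINC00493 (SMIM26, a mitochondrial microprotein) was at 104, 152 and 135 TPM in TSA and 179, 209 and 159 TPM in vehicle. It fell by 0.49 (SE 0.17), which passed narrowly (adjusted p = 0.0409, limma) and did not pass in 10 of the 18 other settings, with adjusted p-values up to 0.199. Among these were median-of-ratios and quantile scaling and leaving out TSA replicate 1, TSA replicate 3, vehicle replicate 1 or vehicle replicate 2. LINC00116 (MTLN, mitoregulin of the mitochondrial inner membrane) averaged 3.83 ± 0.991 TPM in TSA and 5.6 ± 0.810 TPM in vehicle and did not pass. It passed under 1 alternative, with the trend on length and GC content removed (adjusted p = 0.0483, limma). LINC00998 (SMIM30, a small integral membrane protein) was among the most abundant LINC genes, at 116, 130 and 117 TPM in TSA and 112, 130 and 104 TPM in vehicle. Its difference of 0.08 had a 95% interval from −0.19 to 0.34, and passed under 1 alternative, with the trend on length and GC content removed (0.30, adjusted p = 0.0244). LINC00634 (SMIM45) averaged 0.754 ± 0.210 TPM in TSA and 1.33 ± 0.400 TPM in vehicle and did not pass. It passed under 2 alternatives, quantile scaling and removal of the trend on length and GC content (lowest adjusted p = 0.0219, limma).

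LINC00984 (INAFM2) was at 40.8, 57.8 and 55.4 TPM in TSA and 29, 37.0 and 34.0 TPM in vehicle. Its rise of 0.60 (adjusted p = 0.0164, limma) did not pass without TSA replicate 2, TSA replicate 3 or vehicle replicate 1, with adjusted p-values from 0.0548 to 0.0617. LINC00094 (BRD3OS) averaged 28.9 ± 0.796 TPM in TSA and 19.9 ± 1.01 TPM in vehicle and rose by 0.52. LINC00617 (TUNAR, a transcript of pluripotent and neural cells) was at 13.7, 13.8 and 13.4 TPM in TSA and 37.2, 42.4 and 45.5 TPM in vehicle. It fell by 1.54 (SE 0.11, adjusted p = 4.37e-05, limma), and the groups lay far apart relative to their spread.

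Another 3 entries are listed by RefSeq as synonyms of larger coding genes, which the deposited table also holds under their own symbols. LINC00610 averaged 1.49 ± 0.139 TPM in TSA and 0.496 ± 0.118 TPM in vehicle and rose, as did COMMD9, at 93.96 ± 9.47 TPM in TSA and 56.9 ± 6.26 TPM in vehicle. LINC00341 averaged 1.30 ± 0.903 TPM in TSA and 7.84 ± 3.09 TPM in vehicle. It fell, as did SYNE3 (nesprin-3, which ties the nuclear envelope to intermediate filaments), at 0.347 ± 0.166 TPM in TSA and 2.43 ± 0.900 TPM in vehicle. LINC00610 met the inclusion rule mainly through the TSA libraries and LINC00341 mainly through the vehicle libraries. LINC00594 averaged 1.15 ± 0.227 TPM in TSA and 0.755 ± 0.385 TPM in vehicle on 1 to 4 recovered reads a library and did not pass, while DISP2 rose by 1.88.

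**Figure D2:**
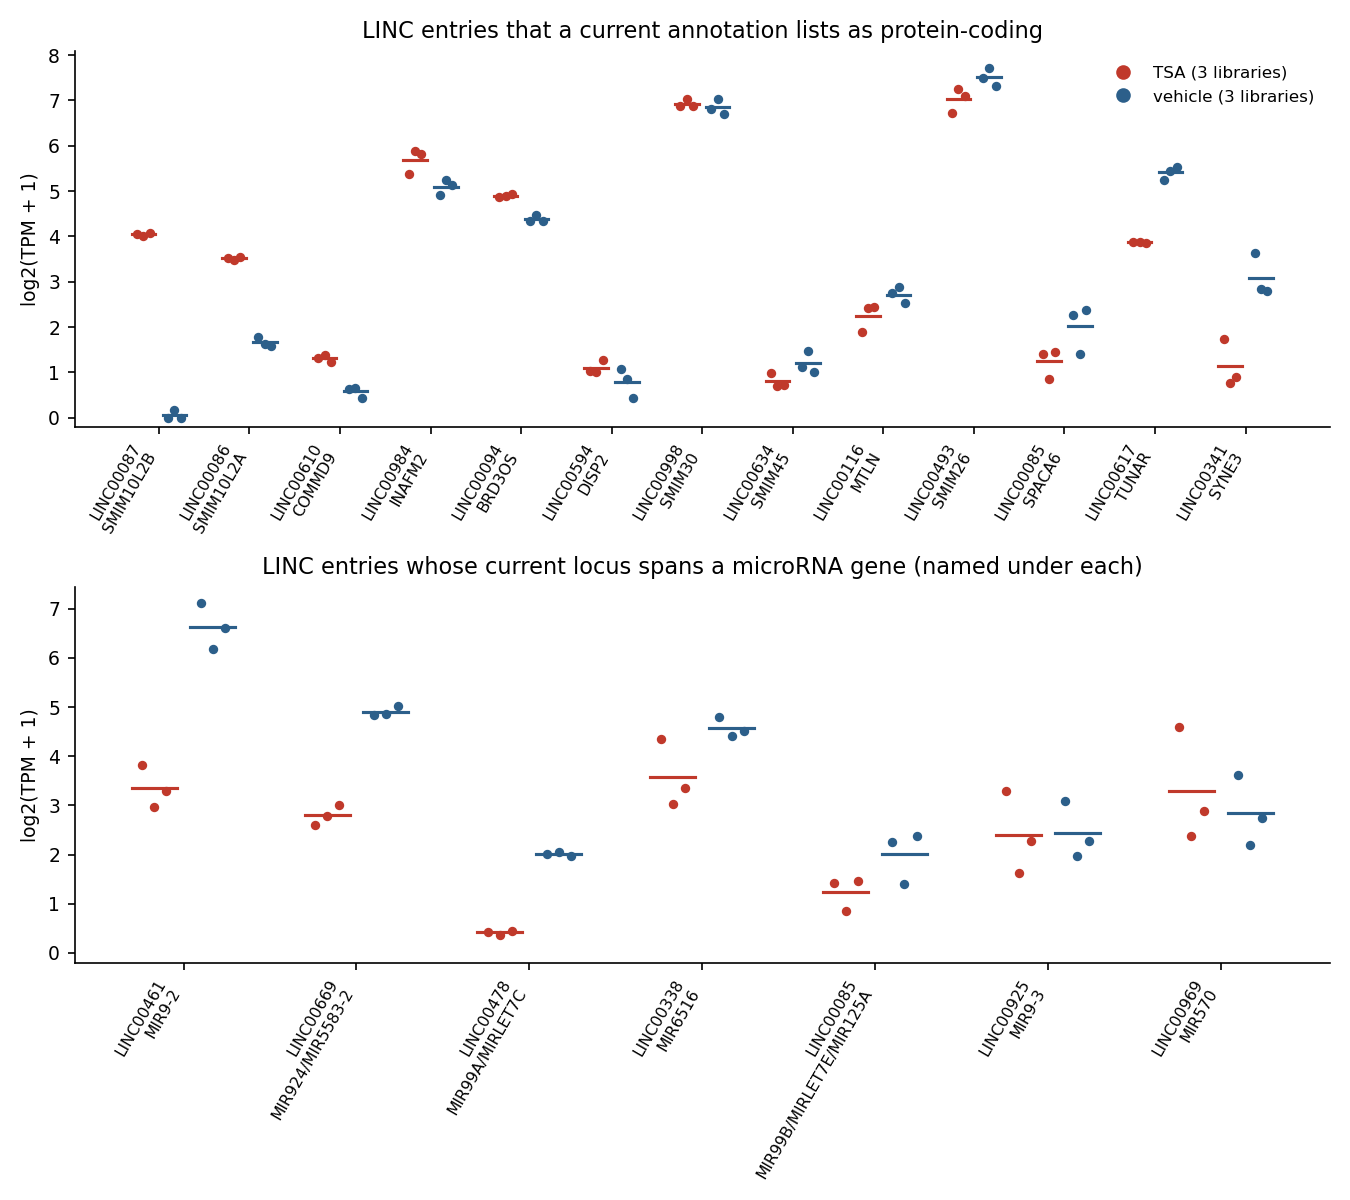
Level on the log2(TPM + 1) scale (y axis) in each of the 3 TSA libraries (left) and 3 vehicle libraries (right) of each gene (x axis), with bars at group means. The upper panel shows the 13 LINC entries listed as protein-coding and the lower panel the 7 hosts of microRNA genes. Of the 13, LINC00610, LINC00341 and LINC00594 are only synonyms of coding genes that were measured separately. LINC00461 is low in TSA while LINC00925 overlaps between groups.

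The most abundant LINC gene was LINC00657 (NORAD), an RNA that binds Pumilio proteins and helps to keep the genome stable. It was at 543, 430 and 435 TPM in TSA and 292, 248 and 331 TPM in vehicle. All TSA values exceeded all vehicle values, and the rise was 0.69 (SE 0.15, adjusted p = 0.00677, limma). NORAD made up a large part of the summed level of the LINC genes. The sum over all 97 was 2016.2, 1721.2 and 1674.4 TPM in TSA and 1885.5, 1703.4 and 1853.5 TPM in vehicle, and the groups overlapped. Without NORAD the sums were 1473.4, 1290.8 and 1238.9 TPM in TSA and 1593.5, 1455.3 and 1522.7 TPM in vehicle, and TSA replicate 1 alone lay within the vehicle range. Of the 50-base words in NORAD transcripts 30.3% occur in transcripts of other genes, most of them in OVCH1-AS1, so part of its reads could come from those genes.

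The other most abundant genes were LINC00624, LINC00205, LINC00998, LINC00493, LINC00403, LINC00467 and LINC00888. LINC00624 was at 287, 201 and 188 TPM in TSA and 0.427, 0 and 0 TPM in vehicle, from 1459, 1052 and 933 recovered reads in TSA and 2, 0 and 0 in vehicle. The second most abundant LINC gene in treated cells was therefore close to undetected without TSA. Its difference was 7.63 (SE 0.22, adjusted p = 5.3e-06, limma), and between 7.44 and 10.39 under the other settings tried. LINC00624 met the inclusion rule through the TSA libraries, so it had to differ. It was not matched in GENCODE 29, and sequence shared with other genes was not checked for it. LINC00467 averaged 60.4 ± 4.32 TPM in TSA and 86.4 ± 6.54 TPM in vehicle and fell by 0.51. LINC00888 (SNHG33, a host of small nucleolar RNA) averaged 58.7 ± 8.48 TPM in TSA and 83.8 ± 7.34 TPM in vehicle. It fell by 0.51, a call that did not pass with median-of-ratios scaling (adjusted p = 0.111) or with voom on recovered reads (adjusted p = 0.0607).

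Besides the genes above, the 12 greatest rises among LINC genes with at least 5 TPM in the higher group took in LINC00312, LINC00936, LINC00449, LINC00205, LINC01006, LINC00337 and LINC01003. LINC00312 was at 11.2, 6.92 and 7.08 TPM in TSA and 1.79, 1.67 and 1.21 TPM in vehicle, a rise of 1.85. LINC00936 (ATP2B1-AS1) was at 6.86, 7.24 and 6.80 TPM in TSA and 1.40, 1.49 and 1.52 TPM in vehicle, a rise of 1.69 with little spread in either group. LINC00449 averaged 8.49 ± 3.58 TPM in TSA, with replicate 1 the highest, and 1.89 ± 0.311 TPM in vehicle. LINC01003 averaged 25.1 ± 2.57 TPM in TSA and 15.9 ± 1.47 TPM in vehicle and rose by 0.62. LINC00643, LINC00883 (DUBR) and LINC00226 were listed at 0 in all vehicle libraries. They averaged 1.58 ± 0.221, 1.60 ± 0.267 and 2.10 ± 0.933 TPM in TSA, and all rose. They met the inclusion rule through the TSA libraries alone, so they had to differ.

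Besides genes described above or with their neighbours below, the 12 greatest falls took in LINC01014, LINC00403, LINC01071 (TUSC8), LINC00871, LINC00867 and LINC00592. LINC01014 was at 3.81, 5.57 and 5.62 TPM in TSA and 93.2, 88.7 and 83.1 TPM in vehicle, and fell by 3.91 (SE 0.15, adjusted p = 7.75e-06, limma). The spread within either group was small beside that gap. Of its 50-base words 20.5% lie in transcripts of AC117457.1, an overlapping gene on the same strand that was not analysed here. GENCODE 29 lists LINC01014 as sense intronic, a type for transcripts in an intron of another gene on the same strand. LINC00403 (SOX1-OT) was at 9.09, 8.37 and 4.66 TPM in TSA and 132, 84.1 and 152 TPM in vehicle, and fell by 3.89 (SE 0.30). SOX1, its nearest coding gene and one it does not overlap in GENCODE 29, was at or near 0, with means of 0 TPM in TSA and 0.107 TPM in vehicle. LINC01071 was at 0.413, 0.201 and 0.318 TPM in TSA and 6.73, 7.16 and 6.35 TPM in vehicle, on 2 to 4 recovered reads in TSA and 60 in each vehicle library. LINC00871, LINC00867 and LINC00592 averaged 0.507, 0.795 and 0.789 TPM in TSA and 6.57, 6.65 and 6.02 TPM in vehicle, with differences of −2.34, −2.15 and −1.98. LINC01071, LINC00871, LINC00867 and LINC00592 met the inclusion rule mainly through the vehicle libraries, so they had to differ.

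**Figure D3:**
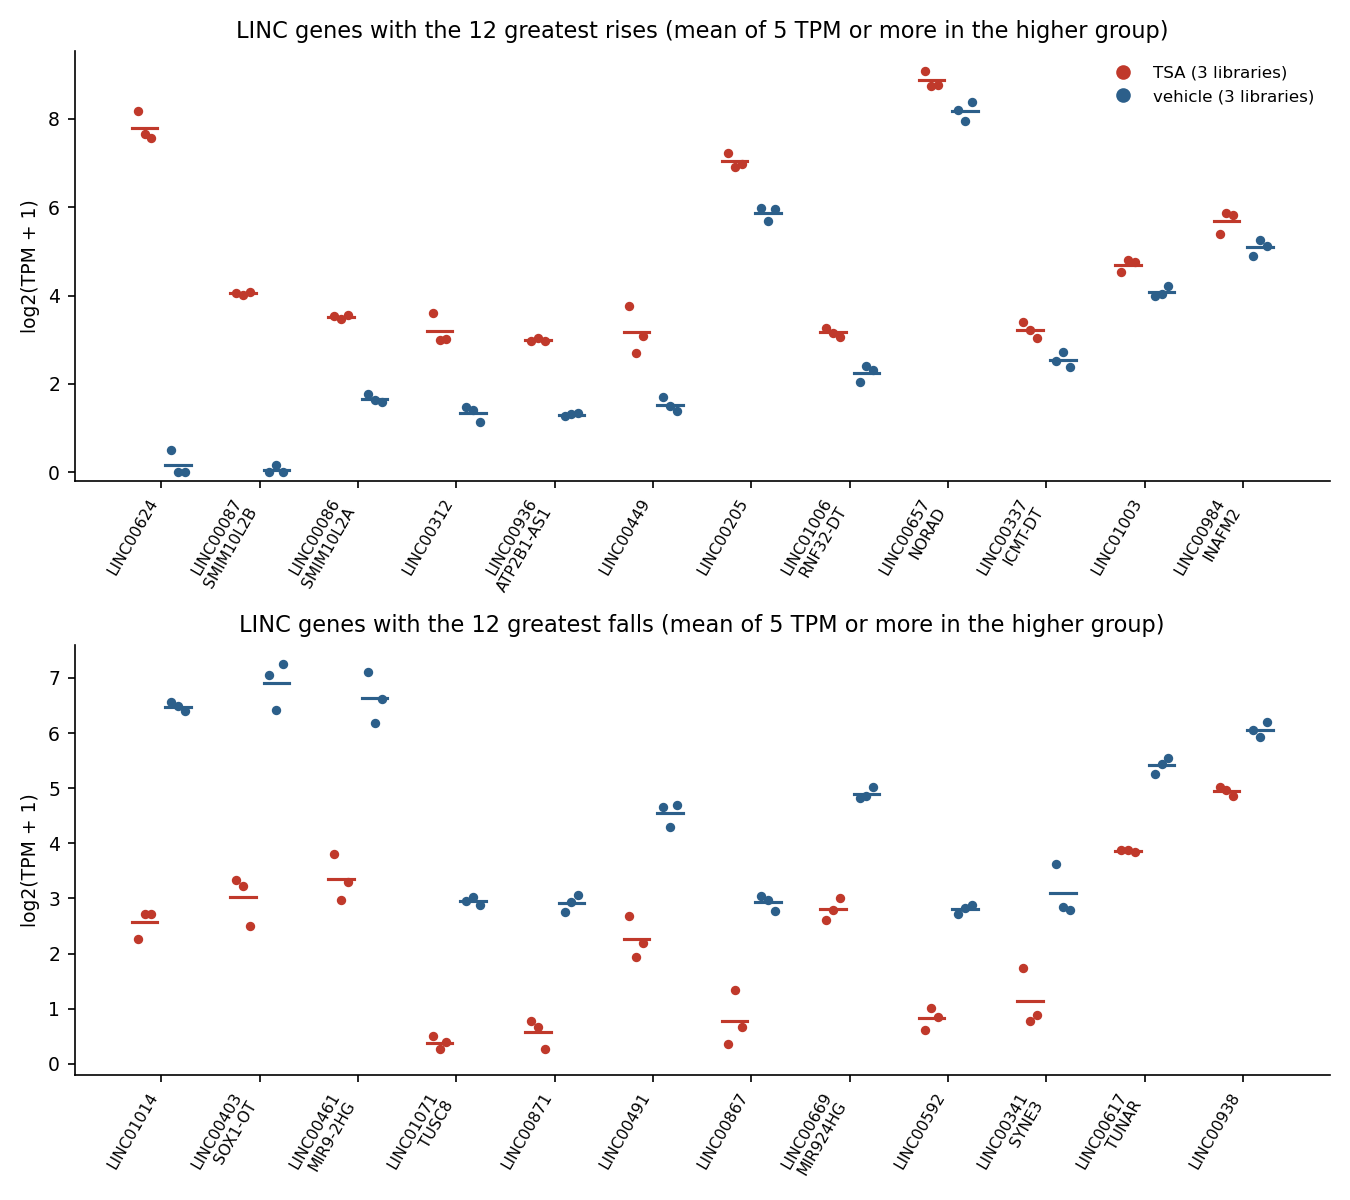
Level on the log2(TPM + 1) scale (y axis) in each of the 3 TSA libraries (left) and 3 vehicle libraries (right) of each gene (x axis), with bars at group means. The upper panel shows the 12 greatest rises and the lower panel the 12 greatest falls, and no gene shown has overlapping groups, since that was a condition for being named.

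RefSeq (GRCh38.p14) held a promoter window, from 250 bases before to 50 after the start, for 71 of the 97 LINC genes. Windows of the 16 genes that rose had a median GC content of 66.0% and a ratio of observed to chance CpG of 0.760. Those of the 29 that fell had medians of 55.0% and 0.564, those of the 26 that did not pass 60.5% and 0.734, and all 27305 windows 58.3% and 0.580. Motifs searched on both strands were the TATA box (TATAAA), the CCAAT box (CCAAT), the GC box (GGGCGG), the cyclic AMP response element (TGACGTCA) and the E-box (CACGTG), none of which contains another. A GC box was in 56.2% of windows of genes that rose, 37.9% of those that fell and 44.6% of all windows. A TATA box was in no window of a gene that rose, in 17.2% of those that fell and in 12% of all. A CCAAT box was in 36.6% of the windows of LINC genes and 35.7% of all, an E-box in 12.7% and 7.43%, and the response element in 2.82% and 1.98%. These are matches of letters in small sets and were not tested. The genes that rose or fell include some that met the inclusion rule mainly through 1 group and so had to differ. The shares and medians of these windows therefore mix the rule with the response.

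Below are the windows of 2 genes that rose with divergent or overlapping coding neighbours and of 3 of the greatest falls, as examples and not as the extremes of base composition. Capitals mark motif matches on either strand.
LINC00205, chr21:45287802-45288101, plus strand: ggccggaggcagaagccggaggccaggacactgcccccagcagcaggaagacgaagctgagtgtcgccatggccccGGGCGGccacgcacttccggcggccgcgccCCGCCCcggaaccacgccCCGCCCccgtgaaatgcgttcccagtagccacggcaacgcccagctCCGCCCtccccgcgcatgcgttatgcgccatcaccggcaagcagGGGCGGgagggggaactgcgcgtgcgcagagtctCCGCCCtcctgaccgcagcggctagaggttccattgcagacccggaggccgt
LINC00337, chr1:6235990-6236289, plus strand: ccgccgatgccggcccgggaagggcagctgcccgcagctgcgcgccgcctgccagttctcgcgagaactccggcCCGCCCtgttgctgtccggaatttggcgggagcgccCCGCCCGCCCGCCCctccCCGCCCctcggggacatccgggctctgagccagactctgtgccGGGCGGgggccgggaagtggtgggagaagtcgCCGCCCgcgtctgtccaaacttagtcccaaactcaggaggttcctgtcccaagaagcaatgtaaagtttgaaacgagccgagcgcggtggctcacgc
LINC01014, chr3:178418951-178419250, plus strand: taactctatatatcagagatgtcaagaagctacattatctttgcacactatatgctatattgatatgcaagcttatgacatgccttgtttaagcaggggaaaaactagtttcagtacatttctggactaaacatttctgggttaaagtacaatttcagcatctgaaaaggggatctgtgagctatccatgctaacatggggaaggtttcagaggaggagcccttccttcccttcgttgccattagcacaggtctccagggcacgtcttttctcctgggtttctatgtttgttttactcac
LINC00403, chr13:111972060-111972359, plus strand: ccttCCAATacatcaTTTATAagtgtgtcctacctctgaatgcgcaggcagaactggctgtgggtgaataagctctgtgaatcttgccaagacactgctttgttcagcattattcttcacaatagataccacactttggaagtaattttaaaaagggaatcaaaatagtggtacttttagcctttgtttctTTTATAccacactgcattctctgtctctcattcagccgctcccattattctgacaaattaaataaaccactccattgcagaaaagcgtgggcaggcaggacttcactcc
LINC00461, chr5:88684776-88685075, minus strand: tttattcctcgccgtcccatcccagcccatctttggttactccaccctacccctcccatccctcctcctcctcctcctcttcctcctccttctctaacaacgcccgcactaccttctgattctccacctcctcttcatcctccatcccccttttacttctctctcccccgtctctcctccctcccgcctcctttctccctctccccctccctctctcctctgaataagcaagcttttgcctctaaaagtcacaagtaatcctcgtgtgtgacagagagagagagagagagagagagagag
The windows of LINC00205 and LINC00337 held 34 and 33 CpG and 6 and 7 GC boxes. The windows of LINC01014, LINC00403 and LINC00461 held 2, 3 and 7 CpG and no GC box. The window of LINC00403 held 1 CCAAT box and 2 TATA boxes, and those of LINC01014 and LINC00461 held none of the motifs searched. Windows of other genes ran the opposite way, as those of LINC00899 and LINC00617, which fell, held 48 and 39 CpG, and those of LINC00920 and LINC00312, which rose, held 1 and 4.

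A tested nearest protein-coding gene in GENCODE 29 was found for 65 LINC genes, of which 18 overlap it and 47 do not. The difference between these kinds of pair was not tested. Both partners passed the test in 14 of 47 pairs without overlap, with 2 pairs rising together, 11 falling together and 1 opposed. Both passed in 8 of 18 overlapping pairs, with 3 falling together, 4 in which the LINC gene rose and the neighbour fell, and 1 of the reverse. Pearson's r of the differences was 0.38 over the pairs without overlap and −0.13 over the overlapping pairs, as a description of pairs that share the libraries. Of the pairs without overlap 35 lie within 50 kb of each other, and both partners passed in 8 of these, with 2 rising and 6 falling together and an r of 0.30. Of all tested genes 28% rose and 34.2% fell. Among LINC genes that fell with their neighbour, LINC00867, LINC00434, LINC00926, LINC00662, LINC00478, LINC01024 and LINC00535 were at 1 TPM or more mainly in vehicle libraries. So was LINC01011, which fell while its neighbour rose. These counts and r therefore mix the inclusion rule with the response. No source used here states whether reads were counted by strand, and reads of genes that overlap on opposite strands could not be told apart.

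LINC00205 and POFUT2, an enzyme that adds fucose to secreted proteins, start within 1000 bases of each other on opposite strands and both rose. LINC00205 was at 149, 119 and 125 TPM in TSA and 61.9, 50.7 and 61.6 TPM in vehicle, a rise of 1.16 (SE 0.13, adjusted p = 0.000293, limma). POFUT2 averaged 34.5 ± 3.44 TPM in TSA and 14.0 ± 2.83 TPM in vehicle and rose by 1.25. Neighbours that fell together included LINC00669 with CELF4, a neuronal RNA-binding protein, at −2.10 and −2.62, though these lie over 50 kb apart. LINC00491 fell by 2.28 and PAM, the enzyme that amidates neuropeptides, by 2.19, and these too lie over 50 kb apart. LINC00938 fell by 1.11 and ARID2, a subunit of a chromatin remodelling complex, by 2.41, and LINC00926 fell by 1.47 and TCF12, a basic helix-loop-helix transcription factor, by 2.30. LINC00461 fell while its neighbour MEF2C, a transcription factor of muscle and neurons, averaged 5.09 TPM in TSA and 5.49 TPM in vehicle and did not pass.

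The 4 overlapping pairs in which the LINC gene rose and the gene on the other strand fell were LINC00337 with ICMT, LINC01006 with RNF32, LINC00476 with ERCC6L2 and LINC00094 with BRD3. LINC00337 (ICMT-DT) was at 9.64, 8.36 and 7.21 TPM in TSA and 4.71, 5.57 and 4.19 TPM in vehicle, a rise of 0.69. ICMT, which methylates prenylated proteins, averaged 132.5 ± 2.74 TPM in TSA and 181.5 ± 8.76 TPM in vehicle. BRD3, a reader of acetylated histones, fell by 0.94 beside the rise of 0.52 of LINC00094. LINC01006 (RNF32-DT) rose by 0.91 while RNF32 fell by 0.48, and LINC00476 rose by 0.47 while ERCC6L2 fell by 1.16. Among the LINC genes counted in the 22 pairs, the calls of LINC00884, LINC01024, LINC00957, LINC00476, LINC00263 and LINC00662 were each lost when at least 1 library was left out. POFUT2 is counted also as the neighbour of LINC00316. On the same strand, LINC01011 fell by 1.31 and overlaps NQO2, a quinone reductase that averaged 71.2 TPM in TSA and 3.66 TPM in vehicle.

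**Figure D4:**
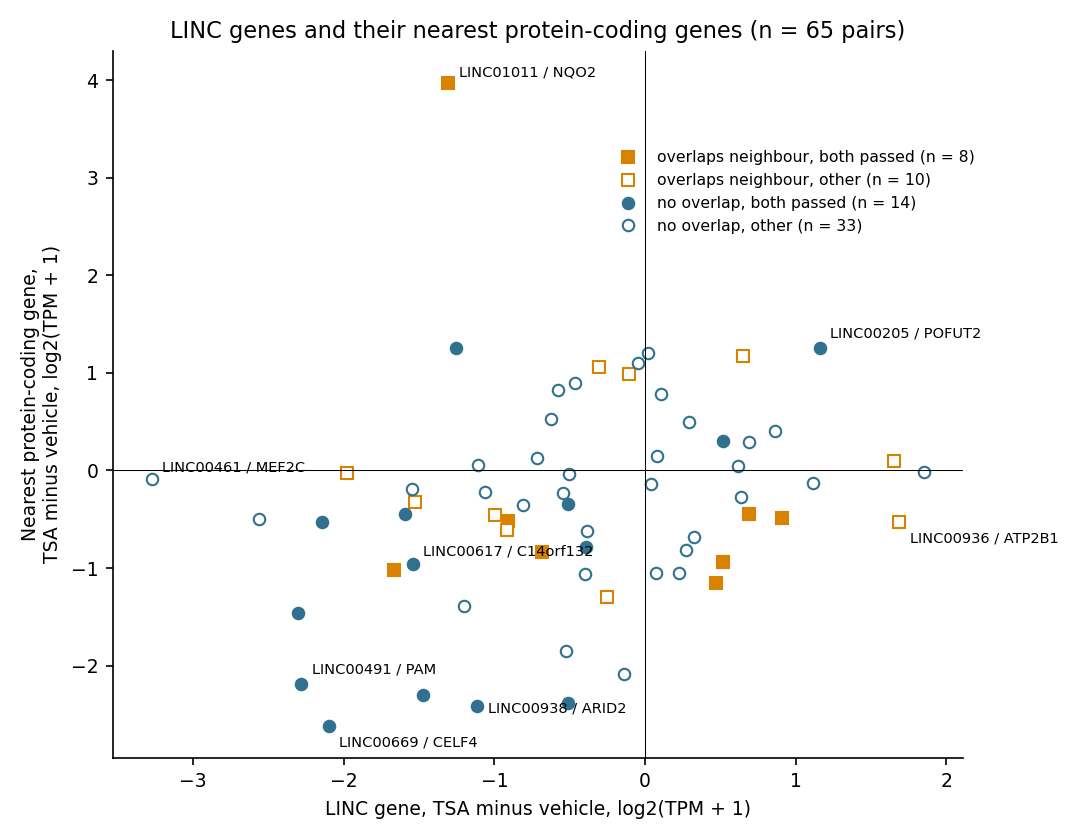
Difference TSA minus vehicle on the log2(TPM + 1) scale of each LINC gene (x axis) and of its nearest protein-coding gene (y axis) for 65 pairs. Squares overlap their neighbour and circles do not, and filled points are pairs in which both passed the test. The 11 filled circles at lower left fell together, and the 4 filled squares at lower right have a LINC gene that rose beside a neighbour that fell.

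A set of LINC genes at 5 TPM or more had the lowest differences and did not pass the test. LINC00630, LINC00667, LINC00998, LINC00511, LINC00526 and LINC00339 had differences from 0.04 to 0.24. LINC00667 averaged 21.1 ± 6.58 TPM in TSA and 19.8 ± 4.16 TPM in vehicle, and LINC00511 averaged 10.3 ± 1.71 TPM in TSA and 9.50 ± 1.83 TPM in vehicle. Their intervals do not exclude small changes, as that of LINC00667 ran from −0.50 to 0.64. LINC00339 passed with quantile scaling, with voom on recovered reads, with a replicate block and without vehicle replicate 2, with adjusted p-values from 0.0225 to 0.0491. Other genes that did not pass had replicates far apart. LINC00632, the precursor of the circular RNA CDR1as, was at 25.9, 4.90 and 6.90 TPM in TSA and 4.78, 1.64 and 3.38 TPM in vehicle, and its difference of 1.41 did not pass (adjusted p = 0.0784, limma). The TSA and vehicle values did not overlap, and replicate 1 was the highest of both groups. It passed without replicate 1 of both groups (1.01, adjusted p = 0.0348), without TSA replicate 2, and in 3 alternatives of scaling or trend. LINC00342 was at 7.05, 0.512 and 0.917 TPM in TSA and 15.3, 1.76 and 3.72 TPM in vehicle, again with replicate 1 far above the rest. LINC01004 also had its highest value of both groups in replicate 1, at 3.77, 1.66 and 0.999 TPM in TSA and 13.8, 2.82 and 4.50 TPM in vehicle. Without replicate 1 of both groups LINC00342 and LINC01004 passed, with differences of −1.08 and −0.99 and adjusted p-values of 0.0303 and 0.0241, and LINC01004 passed also without vehicle replicate 2 (adjusted p = 0.0465). LINC00632, LINC00342 and LINC01004 each passed with a replicate block.

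How many LINC-named genes counted as detected depended on the level asked for. Of the 289, 220, 190 and 188 were above 0 in TSA libraries 1, 2 and 3 and 185, 172 and 182 in vehicle libraries 1, 2 and 3. At 1 TPM or more the order turned, with 87, 71 and 67 in TSA and 95, 87 and 89 in vehicle. At 5 TPM or more there were 46, 37 and 38 in TSA and 43, 37 and 39 in vehicle, and the groups overlapped. TSA libraries thus held more LINC-named genes at traces and, apart from replicate 1, fewer at 1 TPM. These counts were not tested, and counts over all genes are not given here for comparison. Just inside the inclusion rule were LINC00951, LINC00634 and LINC00515, where the value that decided inclusion was 1.02 TPM, 1.02 TPM and 1.01 TPM. Just outside were LINC00277, LINC00460 and LINC00599, at 0.935, 0.931 and 0.899 TPM.

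**Figure D5:**
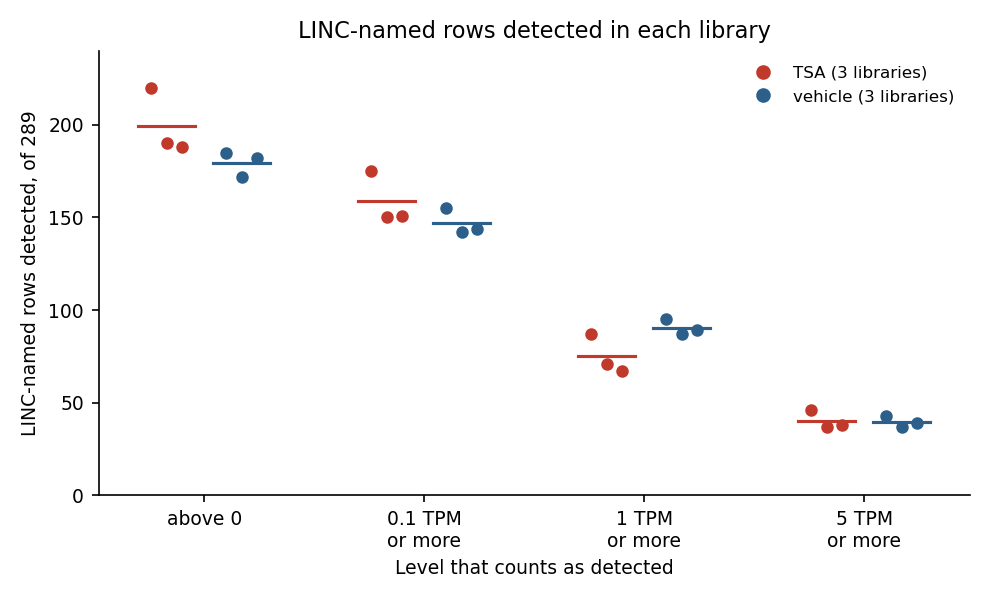
Number of the 289 LINC-named genes detected (y axis) in each of the 3 TSA libraries (left) and 3 vehicle libraries (right) at 4 levels (x axis), with bars at group means. More are above 0 in TSA, from 188 to 220 against 172 to 185 in vehicle, and fewer are at 1 TPM or more, from 67 to 87 against 87 to 95.

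Other classes of long non-coding RNA from the same test are given for comparison, and no test of a difference between classes was made. Of all tested genes 28% rose and 34.2% fell, with a median of −0.10. Of 238 tested genes with an antisense symbol 61 rose and 105 fell, with a median of −0.37. Among the 154 of them at 1 TPM or more in at least 2 libraries of each group, 38 rose (24.7%) and 56 fell (36.4%). Their median was −0.135. Of all tested genes at such a level 25.4% rose and 34.2% fell, with a median of −0.113. Of 13 tested genes with an SNHG symbol, hosts of small nucleolar RNAs, 5 rose and none fell, with a median of 0.32. That list goes by deposited symbols, so it leaves out LINC00888 (SNHG33) and LINC00338 (SNHG20), which both fell. Of 26 tested long non-coding RNAs with established names 6 rose and 9 fell, with a median of −0.02. Among these, SNHG1 is counted also with the SNHG symbols, and OIP5-AS1 and EPB41L4A-AS1 also with the antisense symbols. Among the 21 tested subunits and cofactors of the RNA exosome, which degrades many unstable non-coding RNAs, 2 rose and 11 fell, with a median of −0.41. Of 14 subunits of Integrator, which ends transcription of many non-coding RNAs, 5 rose and 5 fell. By the authors' deposited table, 24 LINC genes had a positive and 36 a negative log2 fold change at an FDR under 0.05, and the sign was the same as that of the limma difference for 94 of 97.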

How the data were processed

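Polyadenylated RNA of H69 cells was sequenced in 3 TSA and 3 vehicle libraries. Per the submitters' processing notes, the build was hg19 and the tools included STAR 2.5.3a and featureCounts, with FastQC 0.11.2, Picard 1.127 and edgeR, without roles. The authors deposited TPM, a level per gene length at a fixed total per library, for genes of GENCODE 19, per the name of the table. The authors also deposited their own comparison, with log2 fold changes, a likelihood ratio score and p-values with FDR, per the file headers.

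Whole reads were recovered from ratios of TPM values for 27644 genes (100% of those not 0 in 2 or more libraries; relative tolerance 1e-09). They are lower bounds, and poly-A reads limit precision most for the lowest genes. LINC genes were tested with limma 3.58.1 (R 4.3.3, trended variance) on log2(TPM + 1). The fit was tried on simulated reads with few changed genes and no replicate effect. That trial cannot vouch for the test in these libraries, where most genes were called. Named were the 12 greatest rises and 12 greatest falls past the test with at least 5 TPM on average in the higher group and no overlap, the 8 most abundant, entries now listed as protein-coding, the 6 smallest differences at 5 TPM or more and genes nearest the filter. Neighbour pairs, hosts and other genes were named after their values were seen. The members, lists and rules were chosen with earlier results of these data known. GENCODE 29 matched 90 of the 97 genes and RefSeq 95, for names, types, neighbours and promoter windows only, since both are on another build than hg19. No pair of libraries within a group was alike to within counting noise. Alternatives were other pseudocounts, filters, scalings and variance models, voom on recovered reads, removal of length and GC trends, a replicate block and leaving out libraries. One marker of the neuroendocrine list is not reported here.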

Additional observations from a re-analysis of the deposited data

How the results depend on the processing

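The numbers of LINC genes called ran from 20 to 24 higher and from 31 to 40 lower when each library was left out in turn, and the number of all genes called from 9446 to 11562. With a filter of 5 TPM, which leaves 46 LINC genes, 15 were higher and 21 lower, the only setting that moved either count by more than 1.5 times. Of the 62 called LINC genes 48 stayed called under each of the 18 alternatives in which they were tested and 14 did not, 12 of them when a library was left out. Of the 35 that did not pass, 15 passed under at least 1 alternative, 10 of them when a library was left out. No called LINC gene changed direction. Median-of-ratios scaling moved the median difference of all genes by 0.10, to 0.01, and that of the LINC genes to −0.27, with 26 higher and 36 lower. The replicate numbers were not taken to pair libraries in the main test. Deviations of same-numbered libraries correlated at 0.633, 0.590 and −0.073, in the order of their numbers. Those of TSA replicate 1 and vehicle replicate 2 correlated at −0.645, and those of TSA replicate 2 and vehicle replicate 1 at −0.584. Deviations within a group sum to 0, so these values depend on each other and cannot decide whether libraries are paired. A replicate effect shared by both groups was not tested, and the main test does not allow for one. With a replicate block 26 LINC genes were higher and 43 lower, of 12485 genes called in all. That block added the calls of 8 LINC genes, among them LINC00085, LINC00339, LINC00342, LINC00632 and LINC01004, with adjusted p-values from 0.00168 to 0.0491, and lost that of LINC00662 (adjusted p = 0.073). The mean number of LINC-named genes detected in TSA minus that in vehicle was −15.3 at 1 TPM, 0.67 at 5 TPM, 11.7 at 0.1 TPM and 19.7 above 0. Genes with few reads are limited by depth.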

Other observations

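Of the 192 LINC-named genes that missed the rule, 14 were above 0 in every TSA library and 0 in every vehicle library, and none showed the reverse. LINC00243 and LINC00326 had 1 recovered read in each TSA library. LINC01007 had 18, 15 and 17 recovered reads in TSA libraries 1, 2 and 3, and LINC00839 had 17, 13 and 12, against 0 in each vehicle library. Without regard to zeros, 24 of the 192 had all TSA values above all vehicle values and 18 had all below. These genes were not tested. The same counts over all genes that missed the rule are not given here, so nothing about LINC-named genes as a class is read from them.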
